A study of Caenorhabditis elegans with 2 samples.

Results

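Small nucleolar RNA (snoRNA) genes that do not lie wholly within a protein-coding gene on the same strand were examined in peak lists from ChIP-seq of the Caenorhabditis elegans transcription factor HLH-12, a protein of the basic helix-loop-helix family. They number 163 of the 346 nuclear snoRNA genes in the Ensembl WBcel235 annotation, and are called unhosted below. Of the 163, 33 lay wholly within a protein-coding gene on the opposite strand and are called antisense. The remaining 130 are called intergenic, though partial overlap with a protein-coding gene was not checked. Of the 163, 7 lay within a noncoding gene on their own strand. The other 183 snoRNA genes, inside a protein-coding gene on their own strand, are called hosted. All animals were hermaphrodite young adults of strain OP538, unc-119(tm4063) III; wgIs538, in which an inserted transgene carries hlh-12 with a GFP-FLAG tag at the C terminus. They were collected whole, 64 hours after synchronization as starved L1 larvae, and chromatin was sonicated and precipitated with an antibody against GFP. The labels give 2 biological replicates in 1 group, and no precipitation from worms lacking the tag was analysed here. All values below are therefore descriptions with no test, and whole animals mix every cell type. For each gene, the highest signal of any peak with its summit within 200 bp was taken from the pooled relaxed list, called on both replicates together, and from the relaxed list of each replicate.

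snoRNAs guide the chemical modification of other RNAs in the nucleolus. Box C/D snoRNAs direct ribose methylation by fibrillarin, and box H/ACA snoRNAs direct pseudouridylation by dyskerin. A hosted snoRNA can be cut out of the intron of its host transcript, while a gene with no host needs a promoter of its own. tRNA genes, transcribed by RNA polymerase III, carry an internal promoter made of an A box and, downstream of it, a B box, both contacted by the factor TFIIIC.

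The sequences just before the 5′ ends of unhosted genes with strong peaks are shown first, because most of them share a pair of letter groups. Each line runs 5′ to 3′ on the strand of the snoRNA and holds 100 bases before its first base and 10 bases from it on, read from the RefSeq WBcel235 genome, which is the ce11 build. Capitals mark A-like letters, TGG and GG with 6 or 7 free bases between them, and B-like letters, GTTCNA. Where a gene holds A-like letters followed by B-like letters as defined below, the first such pair alone is in capitals, and elsewhere every match is. These patterns were written down after the sequences had been seen and follow the usual A box and B box of tRNA genes. The first group has a summit in the authors' strict list, made with the irreproducible discovery rate (IDR) as its threshold, and holds the pair. Sequences of 5 IDR genes are not shown here: ZK265.10, the strongest of all and without the pair, and T19B4.8, ZK484.9, T02E1.9 and Y23H5B.10, which hold it. All 17 other IDR genes are shown.
T06C12.16 (chrV:15873917-15874026, minus strand): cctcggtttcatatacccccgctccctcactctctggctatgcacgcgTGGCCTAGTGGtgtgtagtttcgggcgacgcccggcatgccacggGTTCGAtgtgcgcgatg
W03C9.9 (chrII:11960798-11960907, plus strand): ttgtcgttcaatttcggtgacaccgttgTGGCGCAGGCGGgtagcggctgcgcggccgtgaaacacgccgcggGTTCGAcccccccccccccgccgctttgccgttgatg
T03F7.8 (chrV:11314158-11314267, plus strand): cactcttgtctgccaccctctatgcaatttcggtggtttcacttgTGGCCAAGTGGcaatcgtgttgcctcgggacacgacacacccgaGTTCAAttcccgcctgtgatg
F32E10.10 (chrIV:7574022-7574131, plus strand): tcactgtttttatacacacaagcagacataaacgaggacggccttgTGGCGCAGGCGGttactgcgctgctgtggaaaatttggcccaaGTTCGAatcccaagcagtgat
F30H5.4 (chrIII:502704-502813, plus strand): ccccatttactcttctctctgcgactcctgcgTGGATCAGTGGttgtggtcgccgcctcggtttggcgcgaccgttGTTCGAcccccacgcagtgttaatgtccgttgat
Y75B12B.12 (chrV:15191084-15191193, minus strand): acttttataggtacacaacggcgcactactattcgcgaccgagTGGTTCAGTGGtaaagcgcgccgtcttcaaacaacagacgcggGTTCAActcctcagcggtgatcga
C04G6.12 (chrII:5105222-5105331, minus strand): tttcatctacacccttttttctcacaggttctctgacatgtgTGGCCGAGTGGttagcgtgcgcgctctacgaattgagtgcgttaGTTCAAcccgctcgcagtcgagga
C53B7.8 (chrX:6867838-6867947, plus strand): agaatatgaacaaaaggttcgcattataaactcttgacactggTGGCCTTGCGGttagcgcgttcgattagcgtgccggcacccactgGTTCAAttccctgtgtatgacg
C41C4.11 (chrII:8107261-8107370, minus strand): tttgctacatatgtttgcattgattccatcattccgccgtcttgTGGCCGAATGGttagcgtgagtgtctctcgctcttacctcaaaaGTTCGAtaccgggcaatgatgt
F12F6.11 (chrIV:11549855-11549964, minus strand): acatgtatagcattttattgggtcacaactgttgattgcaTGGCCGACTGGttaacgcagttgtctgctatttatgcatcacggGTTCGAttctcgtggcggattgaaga
The next 7 genes also had an IDR summit but did not hold the pair. B0334.12 held neither letter group.
T04A8.17 (chrIII:4689762-4689871, minus strand): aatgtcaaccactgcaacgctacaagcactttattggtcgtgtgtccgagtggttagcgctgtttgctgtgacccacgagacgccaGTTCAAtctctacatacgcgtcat
H09I01.2 (chrIV:8252994-8253103, plus strand): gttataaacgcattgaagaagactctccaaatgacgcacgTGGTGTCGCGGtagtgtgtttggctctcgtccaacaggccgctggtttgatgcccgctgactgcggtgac
B0334.12 (chrII:11484583-11484692, plus strand): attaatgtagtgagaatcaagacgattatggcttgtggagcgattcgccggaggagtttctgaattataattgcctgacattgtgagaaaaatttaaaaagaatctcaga
C27H5.9 (chrII:7184069-7184178, minus strand): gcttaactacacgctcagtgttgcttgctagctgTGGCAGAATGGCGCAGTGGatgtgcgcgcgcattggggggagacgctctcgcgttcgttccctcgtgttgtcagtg
W01C9.6 (chrII:8547109-8547218, plus strand): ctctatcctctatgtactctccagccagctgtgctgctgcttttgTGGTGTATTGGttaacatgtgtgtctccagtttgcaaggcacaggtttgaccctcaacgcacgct
C46C2.8 (chrIV:9191324-9191433, minus strand): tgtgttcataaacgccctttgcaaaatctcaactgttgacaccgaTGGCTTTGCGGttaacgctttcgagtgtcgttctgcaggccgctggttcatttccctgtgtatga
K02C4.8 (chrII:8075409-8075518, plus strand): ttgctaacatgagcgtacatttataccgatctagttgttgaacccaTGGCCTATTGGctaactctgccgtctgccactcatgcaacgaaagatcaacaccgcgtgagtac
The next 2 genes have alike sequences and different peaks: ZK643.9 had a pooled summit, and K09E9.5 had none.
ZK643.9 (chrIII:8937667-8937776, plus strand): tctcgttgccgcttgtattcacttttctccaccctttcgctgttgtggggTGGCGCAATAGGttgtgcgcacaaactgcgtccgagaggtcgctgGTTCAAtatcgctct
K09E9.5 (chrX:15619391-15619500, plus strand): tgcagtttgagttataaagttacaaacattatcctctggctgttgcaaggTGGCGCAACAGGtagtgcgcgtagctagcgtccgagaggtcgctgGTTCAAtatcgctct
The last 2 genes hold the pair with no summit in any of the relaxed lists.
H04D03.5 (chrIII:10432243-10432352, plus strand): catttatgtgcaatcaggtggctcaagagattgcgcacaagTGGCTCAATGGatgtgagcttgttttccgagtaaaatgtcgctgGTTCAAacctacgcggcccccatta
Y59E1B.14 (chrX:1891409-1891518, plus strand): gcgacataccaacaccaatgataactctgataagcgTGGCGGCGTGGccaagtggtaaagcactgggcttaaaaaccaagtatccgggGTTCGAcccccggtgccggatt

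The peak lists set the scale of the signals. On the nuclear chromosomes, the relaxed lists held 19782 peaks in replicate 1, 22556 in replicate 2 and 6661 in the pooled list, and the IDR list held 230. Signal is the peak caller's own value. It started at 12.1 in replicate 1, 10.1 in replicate 2 and 26.3 in the pooled list, with medians of 15.4, 13.0 and 30.6. The −log10 q value of the IDR peaks lay between 1.04 and 1.13. The replicate values below come from lists called separately, and the sources used here do not say how they were scaled for depth.

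Summits of the relaxed lists, which reach down to very low −log10 q values, lay near a minority of the unhosted snoRNA genes. A summit lay within 200 bp of 51 of 163 unhosted genes (31.3%) in the pooled list, against 43 of 183 hosted genes (23.5%) and 12.1% of all 46890 annotated nuclear genes. In replicate 1 the count was 59 unhosted genes (36.2%), against 59 hosted genes (32.2%) and 26.6% of all genes. In replicate 2 it was 62 unhosted genes (38.0%), against 63 hosted genes (34.4%) and 28.8% of all genes. The shares in the replicate lists stand much closer to those of all genes than the pooled share does. The excess of unhosted over hosted genes was 7.79 percentage points in the pooled list and 3.96 and 3.61 in the lists of replicates 1 and 2 alone.

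In the strict list, 22 of 163 unhosted genes (13.5%) had a summit, against 14 of 183 hosted genes (7.65%) and 0.998% of all genes. All genes include many that are longer than a snoRNA gene, so windows of 500 bp along the genome were counted too: 3.24% held a pooled summit, 9.43% and 10.6% a summit of replicates 1 and 2, and 0.114% an IDR summit. The plot of shares by list shows these values side by side.

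**Figure D1:**
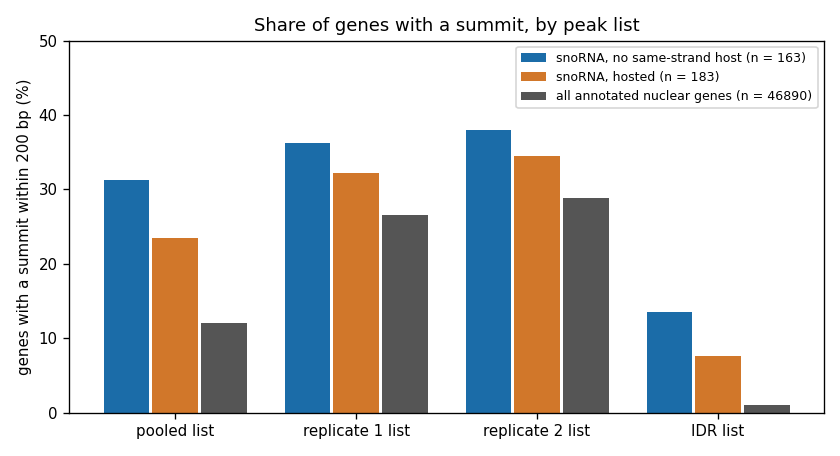
Percent of genes with a peak summit within 200 bp (y axis) in each of the 4 peak lists (x axis), for unhosted snoRNA genes (n = 163), hosted snoRNA genes (n = 183) and all annotated nuclear genes (n = 46890). Unhosted genes have the highest bar in each list, from 31.3% in the pooled list to 38.0% in replicate 2 and 13.5% in the IDR list; the bars have no error because each is 1 count.

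Of the 51 unhosted genes with a pooled summit, 38 also had a summit in both replicate lists. The gene smy-3 stood alone in having a pooled summit (signal 35.2, 223 bp past its 5′ end) with a counterpart in neither replicate list. A further 28 genes had a summit in a replicate list without a pooled one, 5 of them in both replicates, and 84 of 163 had none in any relaxed list. Each of the 51 genes had a pooled peak of its own. None of the 51 summits had a tRNA gene within the same distance. Another small RNA gene shared the summit at 1 of these 51 unhosted genes, against 7 of the 43 hosted genes with a pooled summit, whose summits belonged to 39 distinct peaks.

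Signals at the unhosted genes spanned a wide range. The pooled signal had a median of 51.2 (26.8 to 168.8) over 51 unhosted genes and of 50.3 (26.7 to 245.4) over 43 hosted genes. At the 43 unhosted genes with a value in both replicates, replicate 1 was the higher in 32, by a median of 1.30 times. Across these 43 genes the replicate signals had a Spearman's rho of 0.77 and, on the log2 scale, a Pearson's r of 0.78, against 0.63 and 0.72 over 36 hosted genes. The genes within a replicate share 1 library, so these are descriptions of the lists and not of independent animals.

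The 22 genes with an IDR summit had pooled signals from 65.5 to 168.8 (median 97.8) and ranked from 4 to 155 among the nuclear pooled peaks. Their replicate signals had a median of 51.9 in replicate 1 (22.9 to 103.4) and of 46.7 in replicate 2 (19.0 to 85.4). The SD between replicates of 1 gene had a median of 12.3, while the replicate means of the 22 genes had an SD of 16.7. Neighbours in the order below therefore mostly differ by less than their replicates do.

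ZK265.10, intergenic on chromosome I (8259437 to 8259498, minus strand), had the highest pooled signal of all unhosted genes, 168.8, with 88.5 in replicate 1 and 85.4 in replicate 2. Its replicates nearly coincided. T06C12.16, intergenic on V (15873855 to 15873926, minus strand), followed with a pooled signal of 166.5, and 103.4 in replicate 1 and 65.99 in replicate 2. W03C9.9, intergenic on II (11960898 to 11960959, plus strand), had 150.4 pooled, 88.6 in replicate 1 and 58.5 in replicate 2. T19B4.8, intergenic on I (5707046 to 5707119, plus strand), had 142.7 pooled, 88.6 in replicate 1 and 64.0 in replicate 2. In these 3 genes replicate 1 was clearly the higher, and their replicate ranges overlapped each other.

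A second group was antisense to protein-coding genes, where 11 of 33 unhosted genes had a pooled summit, 6 of them in the IDR list, against 40 and 16 of 130 intergenic genes. T03F7.8 on V (11314258 to 11314332, plus strand), antisense to the cuticlin-like gene cutl-18, had a pooled signal of 132.0, with 80.8 in replicate 1 and 55.6 in replicate 2. T04A8.17 on III (4689634 to 4689771, minus strand), antisense to ppat-1, had 123.6 pooled, 69.0 in replicate 1 and 53.1 in replicate 2. Both lay among the 15 strongest nuclear pooled peaks. C27H5.9, antisense to pdl-1 on II (7184010 to 7184078, minus strand), had 102.1 pooled, 49.8 in replicate 1 and 54.4 in replicate 2. B0334.12, antisense to the potassium channel gene twk-5 on II (11484683 to 11484752, plus strand), had 103.0 pooled, 68.2 in replicate 1 and 37.1 in replicate 2. C04G6.12, antisense to the MAP kinase gene mpk-2 on II (5105157 to 5105231, minus strand), had 89.0 pooled. Its replicates differed most among the 22 genes, with 65.5 in replicate 1 and 23.0 in replicate 2. ZK484.9, antisense to the ABC transporter gene haf-9 on I, had 78.9 pooled, 45.6 in replicate 1 and 35.2 in replicate 2. The median pooled signal was 78.9 over the 11 antisense genes and 49.4 over the 40 intergenic genes, a difference that was not tested.

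The remaining IDR genes were intergenic and held pooled signals of 112.2 and below. H09I01.2 on IV (8253094 to 8253165, plus strand) had 112.2 pooled, 68.0 in replicate 1 and 42.2 in replicate 2. F32E10.10, also on IV (7574122 to 7574191, plus strand), had 100.1 pooled, 59.7 in replicate 1 and 40.2 in replicate 2. Both were higher in replicate 1. W01C9.6 on II (8547209 to 8547338, plus strand) had 98.4 pooled, 39.0 in replicate 1 and 57.99 in replicate 2. K02C4.8, also on II (8075509 to 8075643, plus strand), had 66.2 pooled, 22.9 in replicate 1 and 43.0 in replicate 2. In these genes the order of the replicates was turned round. F30H5.4 on III (502804 to 502889, plus strand) had 97.2 pooled, 50.4 in replicate 1 and 48.8 in replicate 2. Y75B12B.12 on V (15190976 to 15191093, minus strand) had 93.1 pooled, 44.8 in replicate 1 and 49.9 in replicate 2. These genes were nearly level between replicates.

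C46C2.8 on IV (9191261 to 9191333, minus strand) and C53B7.8 on X (6867938 to 6868008, plus strand) have nearly the same RNA: aligned without gaps, 97.2% of 71 bases of the genes were identical, and 65.3% of 98 bases before them. C46C2.8 had a pooled signal of 86.8, with 36.1 in replicate 1 and 48.5 in replicate 2. C53B7.8 had 85.2 pooled, with 47.2 in replicate 1 and 37.1 in replicate 2. Their signals could not be told apart, but their summits lay at different places, 7 bases before the first base of C46C2.8 and 78 bases before that of C53B7.8. How multiply matching reads were handled is not stated in the sources used here, and whether signal is shared between such copies was not tested. Among 465 pairs of 31 compared genes, 2 reached 60% identity in the gene or before it.
The exact sequence of 0 of the 22 IDR genes recurs elsewhere in the genome.

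C41C4.11 on II had 81.0 pooled, 36.2 in replicate 1 and 45.0 in replicate 2. T02E1.9 on I had 75.1 pooled, and its replicates were far apart at 53.4 in replicate 1 and 19.0 in replicate 2. Y23H5B.10 on I had 67.3 pooled, 37.8 in replicate 1 and 23.7 in replicate 2. At the border of the strict list, F12F6.11 on IV was the last gene inside it, with 65.5 pooled, 33.8 in replicate 1 and 24.1 in replicate 2. ZK643.9 on III was the first gene outside it, with 54.8 pooled, 34.6 in replicate 1 and 20.3 in replicate 2. The replicate values of these 2 genes overlap. F59C6.15 on I (53.3 pooled, 33.0 and 31.6 in replicates 1 and 2) and T10B9.11 on II (53.1 pooled, 26.2 and 30.4) came next. At the distance limit, K11D9.10 lay just inside, with a summit 196 bp away (signal 31.5), and C17H12.36 just outside, with a summit 214 bp away (signal 27.1).

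**Figure D2:**
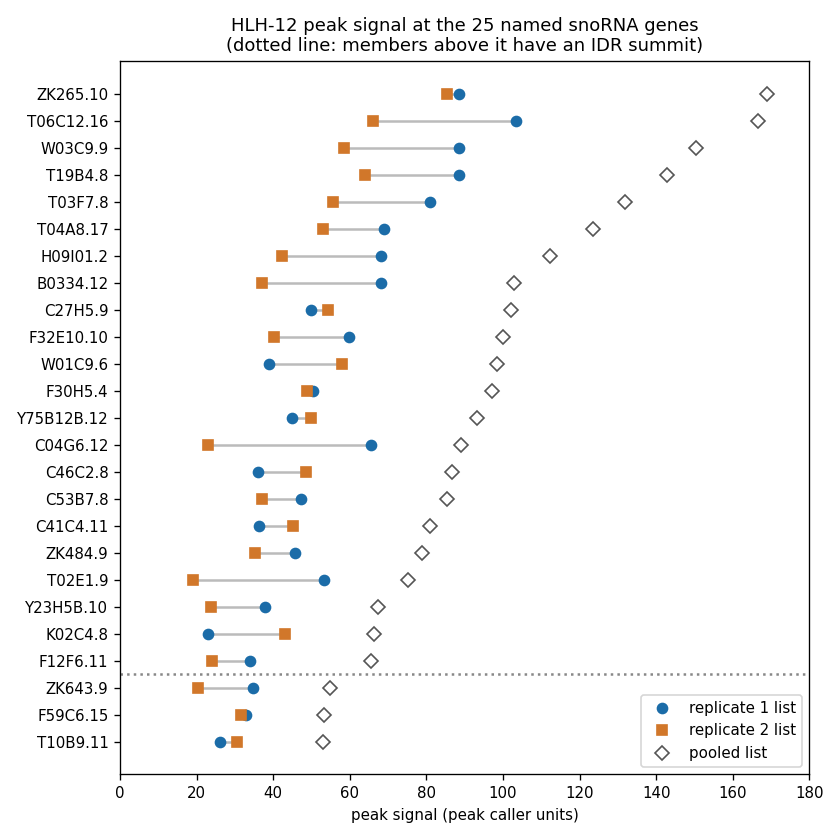
Peak signal in peak caller units (x axis) of the 25 unhosted snoRNA genes with the highest pooled signal (y axis), with circles for replicate 1, squares for replicate 2 and open diamonds for the pooled list; grey lines join the replicates. The 22 genes above the dotted line have an IDR summit and pooled signals of 65.5 or more, and the replicates of C04G6.12, T02E1.9 and T06C12.16 are farthest apart.

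The pooled summits of the strong peaks lay mostly just upstream of the snoRNA, while those of replicate 2 were upstream at 12 of 22 genes. Place is counted along the strand of the gene, with 0 at its first base and negative values upstream. Over the 22 IDR genes the pooled summit had a median place of -32.5 (quartiles -48 and -3.25), with 17 upstream, 4 inside the gene and 1 past its 3′ end. In 14 of the 22 the pooled summit lay between -80 and -20, bounds that were not planned beforehand. The exception past the 3′ end was B0334.12, at 116.

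The 29 genes with a pooled but no IDR summit, with signals from 26.8 to 54.8, showed no such position. Their median place was 27, with 9 summits upstream, 13 inside and 7 past the 3′ end, and 4 of 29 lay between -80 and -20. Over all 51 genes together the median place was -3, with 26 summits upstream. Hosted genes had a median place of -17.5 over 14 IDR genes, 11 of them upstream, and of 21 over 29 genes with a pooled summit only.

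Summits of replicate 2 lay farther from the pooled summits than those of replicate 1. Over the 22 IDR genes the median place was -33 in replicate 1, with 18 upstream, and -2.5 in replicate 2, with 12 upstream. Replicate 1 summits lay a median of 2.5 bp from the pooled summit, and replicate 2 summits a median of 32 bp. T06C12.16, for example, had its summit at -53 in the pooled list, at -73 in replicate 1 and at -21 in replicate 2. C27H5.9 had -41, -41 and -44. The place of a single gene is therefore known to a few bases in some genes and far less well in others.

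**Figure D3:**
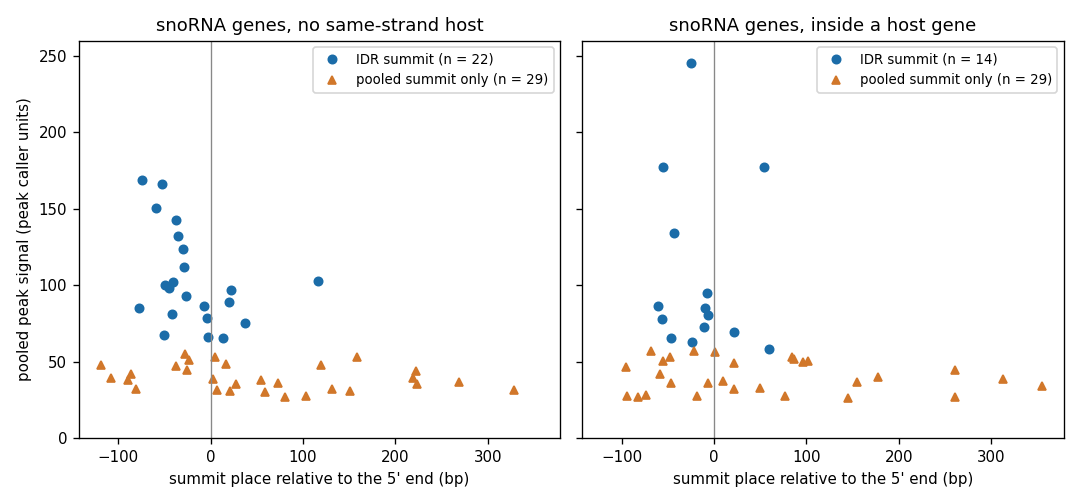
Pooled peak signal in peak caller units (y axis) against the summit place relative to the snoRNA 5′ end in bp (x axis, negative is upstream), for unhosted genes (left) and hosted genes (right), with circles for IDR summits and triangles for pooled summits only. In unhosted genes the circles crowd between -78 and 37 with 1 at 116, and the triangles spread from -119 to 328.

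The letter pair shown in the sequences above was most frequent at the strong peaks. It was counted where A-like letters were followed, 20 to 60 bases later on the strand of the snoRNA, by B-like letters within the window of 110 bases. The pair was found at 14 of 22 unhosted genes with an IDR summit (63.6%), 4 of 29 with a pooled summit only (13.8%) and 4 of 112 with no pooled summit (3.57%). On the opposite strand it was found at 0 of 163. Among all 19973 nuclear protein-coding genes, windows of the same length held the pair on the gene strand in 16 (0.0801%) and on the opposite strand in 44 (0.220%).

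A-like letters alone followed the same order, while B-like letters stood out at the IDR genes only. A-like letters were found at 20 of 22, 8 of 29 and 19 of 112 unhosted genes with an IDR, a pooled only and no pooled summit, and on the opposite strand at 2, 4 and 17. B-like letters were found at 15, 4 and 14 of them (68.2%, 13.8% and 12.5%), and on the opposite strand at 1, 2 and 8. Their shares at genes without an IDR summit were thus nearly level. In protein-coding genes, 3.73% of windows held A-like and 10.9% held B-like letters on the gene strand. On their opposite strand the shares were 10.1% and 8.74%. All but 1 of the 22 IDR genes held at least 1 letter group, the exception being B0334.12.

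Among hosted genes the pair was found at 4 of 14 with an IDR summit (28.6%), 6 of 29 with a pooled summit only (20.7%) and 6 of 140 with none (4.29%). In total the pair was found at 22 of 163 unhosted genes (13.5%) and 16 of 183 hosted genes (8.74%). ZK994.7, the hosted gene of highest pooled signal (245.4), lies in pxn-1 and does not hold it. The pair counts compare the peaks with letters chosen after the sequences were seen, and no test was made of them.

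**Figure D4:**
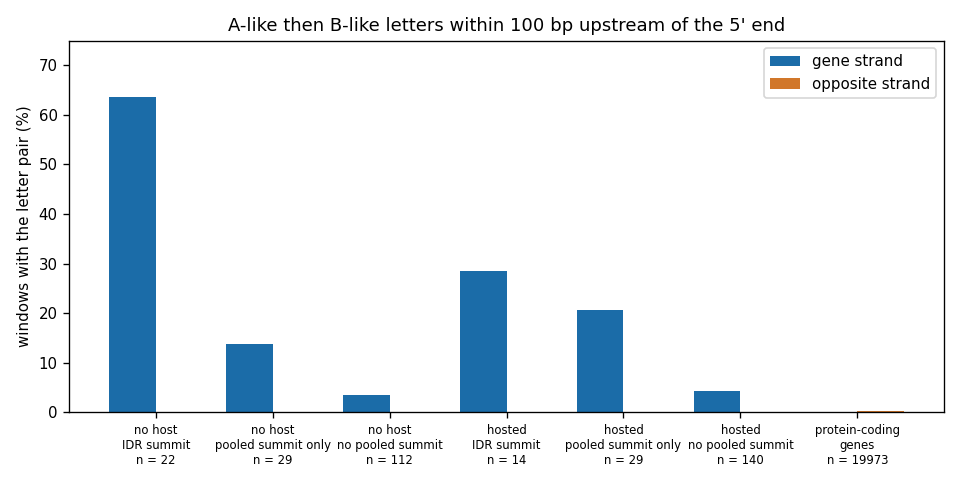
Percent of windows of 110 bases around the 5′ end that hold A-like letters followed by B-like letters (y axis), for snoRNA genes by host and by strongest summit and for protein-coding genes (x axis, with n), on the gene strand (blue) and the opposite strand (orange). Unhosted genes with an IDR summit reach 63.6% on the gene strand, and the opposite strand is at 0 in each snoRNA group and at 0.220% in protein-coding genes.

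Read from the letters, 18 of the 22 unhosted genes with the pair had a pooled summit (81.8%) and 14 an IDR summit, against 33 (23.4%) and 8 of 141 without it. This is the comparison above turned round. The letters were chosen after the sequences had been seen, so it is no independent support for the pair. The replicate lists gave 18 and 19 of 22 with the pair, against 41 and 43 of 141 without it. Median pooled signals were 83.1 over the 18, which include the 14 IDR genes, and 39.5 over the 33. Among genes with an IDR summit alone the order was the other way. There the median signal was 91.0 over the 14 with the pair and 102.5 over the 8 without it. The pair stood in a narrow stretch: the A-like letters began at a median of -57.5 (-76 to -46) and the B-like letters at -12.5 (-31 to -5). The pooled summit fell from the first A-like to the last B-like base in 9 of 18 genes, before them in 3 and after them in 6.

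**Figure D5:**
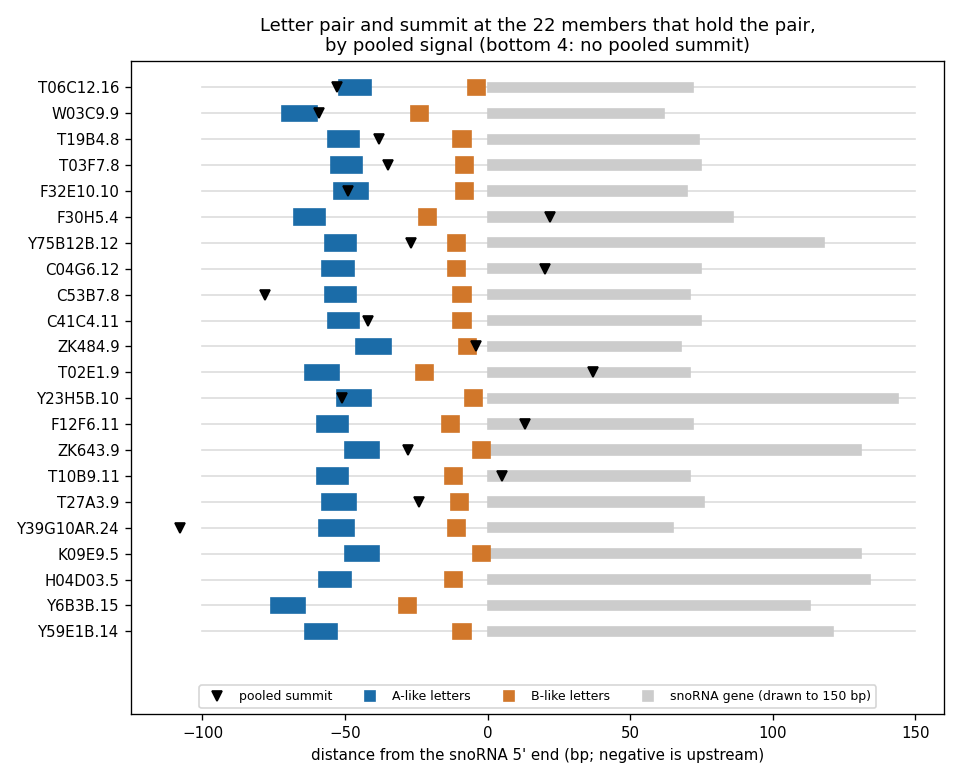
Map of the 22 unhosted snoRNA genes that hold the letter pair (y axis), ordered by pooled signal, against distance from the 5′ end in bp (x axis, negative is upstream), with A-like letters in blue, B-like letters in orange, the snoRNA gene in grey and the pooled summit as a triangle. The A-like letters begin between -76 and -46, and the bottom 4 genes have no pooled summit.

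No annotated tRNA gene lay in the 100 bases upstream of any of the 163 unhosted genes, and an annotated pseudogene lay there at 2, Y59E1B.14 and Y73B3A.31. Y59E1B.14 was one of the 4 genes that held the pair with no pooled summit. H04D03.5 and Y6B3B.15 were likewise in none of the relaxed lists, and their nearest pooled summits lay 10397 and 6138 bp away. K09E9.5 on X had a summit in replicate 2 alone, with a signal of 19.96 at -81. Its near copy ZK643.9, with 94.7% identity over 131 bases of the gene and 64.0% over the 100 bases before it, had summits in both replicates. Both hold the same B-like letters, GTTCAA, at -5 and A-like letters at -50.

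The RNA itself differed in length between the groups, which also differ in identifier series as described below. Genes of the WBGene0021 and WBGene0022 series, with 0 IDR summits, had a median length of 159 bases and the others one of 80. Both C/D boxes were present in 0 of 106 and 8 of 57 of them. The 22 genes with an IDR summit had a median length of 72.5 bases (62 to 144), the 29 with a pooled summit only 126 and the 112 with none 153. Box D letters, CTGA in the last 25 bases, were present in 12 of 22, 12 of 29 and 18 of 112. Box C letters, TGATGA in the first 25 bases, were present in 4, 3 and 4, and both boxes in 2, 3 and 3. H/ACA-type letters, ACA 2 to 5 bases before the 3′ end, were present in 5 of 22, 3 of 29 and 19 of 112. These counts overlap with those of box D: C46C2.8, C53B7.8 and ZK643.9, for example, hold both. The B box letters GTTCGA were inside the gene at 0 of 22, 1 of 29 and 5 of 112. Box letters vary between snoRNAs, so a search for exact letters does not count every C/D or H/ACA gene. Of the RNAs below, box D of T06C12.16, W03C9.9, T03F7.8 and H09I01.2 is in capitals, as is box C of W03C9.9.
T06C12.16 (chrV:15873855-15873926, minus strand): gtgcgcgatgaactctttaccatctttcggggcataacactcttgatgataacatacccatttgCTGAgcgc
W03C9.9 (chrII:11960898-11960959, plus strand): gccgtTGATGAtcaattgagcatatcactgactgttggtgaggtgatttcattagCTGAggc
T03F7.8 (chrV:11314258-11314332, plus strand): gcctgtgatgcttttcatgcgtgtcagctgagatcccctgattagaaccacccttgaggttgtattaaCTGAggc
H09I01.2 (chrIV:8253094-8253165, plus strand): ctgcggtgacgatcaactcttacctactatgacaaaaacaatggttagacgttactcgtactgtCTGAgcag

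Gene identifiers split the unhosted genes unevenly, a pattern seen after the values were known. Of 106 genes whose WormBase identifier begins with WBGene0021 or WBGene0022, 11 had a pooled summit (10.4%), 0 an IDR summit and 1 the letter pair, with a median length of 159 bases. Of the other 57 genes, 40 had a pooled summit (70.2%), 22 an IDR summit (38.6%) and 21 the pair, with a median length of 80. The share of the 106 genes lay under the 12.1% of all genes, many of them longer, but above the 3.24% of 500 bp windows. Among hosted genes the same split gave 6 of 95 and 37 of 88 with a pooled summit (6.32% and 42.0%). Within the 57 genes, IDR summits were found at 14 of 21 genes that hold the pair (66.7%) and 8 of 36 that do not (22.2%). All 22 IDR genes are among these 57, and the letters were chosen after the sequences had been seen. These counts are therefore no independent support for the pair.

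Unhosted genes with summits were found on all 6 nuclear chromosomes, with the lowest share on X. IDR summits were found at 5 of 38 unhosted genes on I, 7 of 36 on II, 2 of 16 on III, 4 of 31 on IV, 3 of 19 on V and 1 of 23 on X. Pooled summits were found at 11, 14, 6, 12 and 6 genes on I to V and at 2 on X. The share was 8.70% on X, against 28.9% on I to 38.9% on II among the others. Shares of all genes by chromosome are not given here, and the difference was not tested.

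HLH-12 belongs to a family of proteins that bind the E-box, CANNTG, which reads the same on both strands. An E-box lay within 50 bp of the pooled summit at 19 of 51 unhosted genes (37.3%), against 18 of 43 hosted genes (41.9%), 32.6% of all nuclear pooled summits and 32.2% of windows of the same length along the nuclear genome. At the 22 IDR summits it was present in 8 (36.4%). These shares lie close to the background of the genome.

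The proteins that act with snoRNAs were looked up in a list of 10 genes. Pooled summits in a promoter, spanning 1000 bp before and 200 bp after the 5′ end, were found at 3 of the 10, against 9.03% of all 19973 protein-coding genes, and IDR summits at 0 of 10, against 0.365%. Of the box C/D core, nol-58 had a pooled signal of 27.1, with 23.2 in replicate 1 and 13.4 in replicate 2, while fib-1 (fibrillarin), nol-56 and snu-13 had no summit in any list. Of the box H/ACA core, nola-3 had 36.7 pooled, with 17.3 and 17.5 in replicates 1 and 2, while the dyskerin gene dkc-1, garr-1 and Y48A6B.3 had none. Of the assembly factors, ruvb-1 had 41.8 pooled, with 17.7 and 29.0 in replicates 1 and 2, and ruvb-2 had a summit in replicate 1 alone, with 13.6. All 3 pooled signals lay within the range of the 29 unhosted genes with a pooled summit only, 26.8 to 54.8.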

How the data were processed

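ChIP-seq of HLH-12 was deposited as peak lists for 2 biological replicates. The authors deposited, for each peak, a signal, a −log10 q value and a summit offset, and the ce11 lists were used. Per the file listings, the relaxed lists were called against a control. Aligner, peak caller, depth and treatment of multiply matching reads are not given in these sources, so precision cannot be stated from counts. Summits were placed on Ensembl 115 and RefSeq WBcel235 with Python 3.11.15, numpy 2.4.6 and pandas 2.3.3, and figures were drawn with matplotlib 3.10.9. The scripts were tested on simulated peaks and planted letters. No test was run, since there is 1 group.

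Named genes are every member with an IDR summit, then those of highest pooled signal up to 25, the genes nearest the distance limit, the snoRNP list and the strongest hosted gene; smy-3, the genes with the letter pair and the split by identifier were chosen after their values were seen. Members and lists were chosen with earlier results of these data known. Other distances, member rules, thresholds and single replicates were tried. The ce10 lists were not used.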

Additional observations from a re-analysis of the deposited data

How the results depend on the processing

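Of 72 alternative values, 2 changed sign, 15 moved and 55 stayed near the values reported: counts within 1.5 times, other values within 1 SD between the replicate lists. The median signal of unhosted genes, 51.2 in the pooled list, was 21.1 without replicate 1 and 26.2 without replicate 2, on the scales of single lists. The median summit place, -3, became 6.0 with summits within 500 bp and ranged from -3.0 to 9.5 with 1 replicate left out. The percent of summits upstream, 51.0, was 46.6 at 500 bp and 45.2 to 50.8 with 1 replicate left out. The excess of unhosted over hosted genes, 7.79 percentage points, was 6.91 at 100 bp, 4.98 at 500 bp, 7.27 without antisense genes, 6.56 without genes inside any same-strand gene, 10.4 without other small RNA genes at the summit, 9.98 with each summit given to its nearest snoRNA gene, 9.78 for pooled peaks at or above the median signal and 8.40 by peak overlap. It ranged from 3.61 to 3.96 with 1 replicate left out. The count of IDR genes with the letter pair, 14, was 9 with A-like letters of 6 free bases only, and 11 and 14 among the 22 strongest unhosted genes of replicate 2 and of replicate 1 alone, alternatives chosen after seeing the data. The cause of these moves was not tested. The counts of genes in both replicate lists and in the IDR list have no value with a replicate left out. No paired analysis was possible because the labels give 1 group.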
